A study of Bos taurus with 3 samples.

Results

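Stratified squamous epithelium, the lining of the rumen, skin and oesophagus, renews itself from a basal layer, and a set of transcription factors holds that identity or switches it towards the outer layers. TP63 is the master regulator of basal cells, while GRHL3 and OVOL1 act in cells that leave the basal layer, GRHL3 as an activator of barrier genes and OVOL1 as a repressor that takes part in the exit from proliferation. PITX1, PAX9 and IRX3 are homeobox or paired box factors of regional identity, KLF5 is a Krüppel-like factor of proliferative epithelia, and TFAP2A and TFAP2C are AP-2 factors of surface ectoderm and skin. These are background roles, known mostly from skin, oral and oesophageal epithelium.

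The stratified epithelium transcription factors described here are 10 genes chosen by symbol, TP63, SOX2, PAX9, PITX1, IRX3, KLF5, TFAP2A, TFAP2C, GRHL3 and OVOL1. In the deposited matrices 9 of the 10 symbols matched exactly 1 row each among 27270 genes, and SOX2 was not analysed here. The matched rows were TP63 (ENSBTAG00000015460), PAX9 (ENSBTAG00000009186), PITX1 (ENSBTAG00000004602), IRX3 (ENSBTAG00000012083), KLF5 (ENSBTAG00000002129), TFAP2A (ENSBTAG00000001250), TFAP2C (ENSBTAG00000002065), GRHL3 (ENSBTAG00000019791) and OVOL1 (ENSBTAG00000012656).

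Single-cell RNA sequencing was performed on the ventral rumen of 3 newborn Holstein calves, sampled 1 day after birth, with 1 droplet library per calf. The labels give no treatment or genotype, and the adult libraries of the study were not analysed here. The outer muscle had been stripped and the tissue dissociated with enzymes, so the shares of cell types are those of the cells that survived this step. A level is the number of unique molecular identifiers (UMIs, the tags that count captured mRNA molecules) of a gene per 10000 UMIs of all genes in the summed cells of 1 calf.

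The libraries held 7529 to 12043 barcodes and 82263092 to 106145091 UMIs, and 4886 to 10654 barcodes per calf had 500 to 4000 genes and passed the other limits. Between 21 and 37 barcode sequences were shared by any 2 libraries. After removal of probable doublets 24042 cells remained in 24 clusters, which were made without the members. Cells were named by markers as 21142 epithelial-like, 1322 endothelial-like, 802 immune-like, 470 fibroblast-like and 306 mural or myofibroblast-like cells. Calf 1 had 4 mural or myofibroblast-like, 10 immune-like and 16 fibroblast-like cells. The summed level of 13 epithelial markers was 180 to 245 in epithelial-like cells and 13.6 to 70.2 in fibroblast-like cells, the highest of the latter in calf 1.

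Epithelial-like cells were then ordered by genes other than the members. Cells with at least 5 UMIs per 10000 of KRTDAP, a keratinocyte differentiation-associated protein, were called KRTDAP-high, and those with at least 2 KRTDAP-mid. Cells with a high summed level of mitosis genes were called cycling. The remaining cells of each calf were split into 3 equal parts by a basal score of keratins, hemidesmosome and laminin genes (basal-high, basal-middle and basal-low). There were 176, 281 and 16 KRTDAP-high cells in calves 1, 2 and 3, and 1163, 2730 and 2430 basal-high cells. In a list of differentiation genes that the gate did not use, 11 of 11 tested were higher in KRTDAP-high cells, and 6 of 6 tested adhesion genes of the basal side were lower. Over all 10177 genes tested, 15.6% were higher and 17.3% lower. Between basal-low and basal-high cells, none of the 11 differentiation genes and 6 basal-side genes tested was called (median log2 0.76 and -0.64). In that comparison 0.0686% of 11660 genes tested were higher and 0.111% lower. These lists thus do not show the 3 parts of the basal score to be successive layers. The gates are ranges rather than cell types, with 61 cells at 4 to 6 KRTDAP UMIs per 10000.

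From basal-high to KRTDAP-high cells, GRHL3 and OVOL1 rose many-fold, PITX1, TFAP2A and KLF5 rose by less than 1 log2 unit, and IRX3, TP63 and TFAP2C fell. PAX9 did not pass the test. Thus 5 of 9 members were higher and 3 of 9 lower, beside 15.6% of 10177 genes tested that were higher and 17.3% that were lower (edgeR's quasi-likelihood test on counts summed per calf, with the calf as a block and Benjamini-Hochberg adjustment over all genes). The members' median log2 difference was 0.54 and that of all genes tested was -0.08. Scaling by library size alone moved the latter to -0.27 and the genes called from 1588 higher and 1758 lower to 1209 and 2521, and the members named here other than KLF5 and TFAP2A kept their calls.

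**Figure D1:**
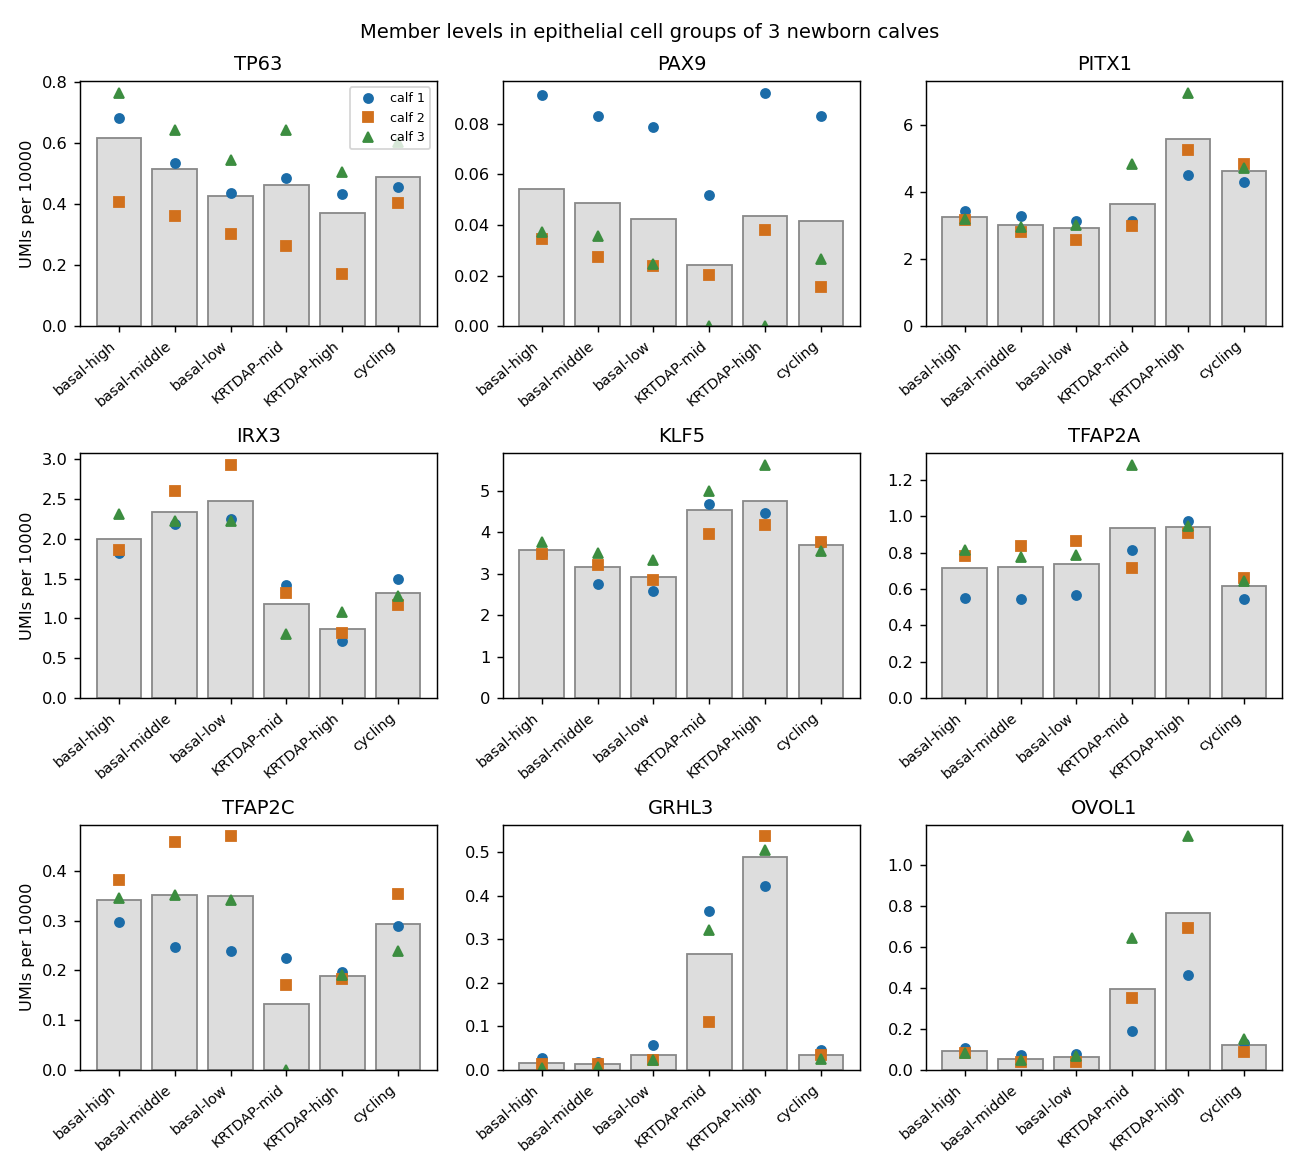
Level of each member (UMIs per 10000, linear axes from 0) in 6 groups of epithelial-like cells; points are calves and grey bars the mean of 3 calves. GRHL3 and OVOL1 stand at 0.49 and 0.76 in KRTDAP-high cells against 0.015 and 0.090 in basal-high cells, while IRX3 falls from 1.99 to 0.87.

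TP63, which specifies and maintains basal cells, had levels of 0.680, 0.405 and 0.764 in basal-high cells of calves 1, 2 and 3. In KRTDAP-high cells its levels were 0.434, 0.170 and 0.506. It was lower in KRTDAP-high cells of each calf, although the groups overlapped because calf 2 was low throughout. The log2 difference was -0.70 ± 0.21 (SE, adjusted p = 0.00971), so a clear TP63 signal persisted in cells with high KRTDAP. The call was lost without calf 2 (log2 -0.49, adjusted p = 0.374) and by DESeq2 (log2 -0.75, adjusted p = 0.0566). The counts are taken at the 3′ end, so the TP63 isoforms were not told apart.

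IRX3, an Iroquois homeobox factor, was the member with the strongest fall. Its levels in basal-high cells were 1.82, 1.85 and 2.31, and in KRTDAP-high cells 0.715, 0.815 and 1.07. The groups did not overlap, and the fit gave a log2 difference of -1.07 ± 0.20 (SE, adjusted p = 5.13e-05), 2.09-fold lower. In basal-middle cells IRX3 was at 2.18 to 2.60 and in basal-low cells at 2.22 to 2.93. KRTDAP-mid cells, of which calf 3 had 8, had a mean between those of basal-high and KRTDAP-high cells, at 1.18 ± 0.33 (SD, n = 3).

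TFAP2C, an AP-2 factor of trophoblast, germ cells and skin, fell from 0.298, 0.381 and 0.346 in basal-high cells to 0.196, 0.182 and 0.190 in KRTDAP-high cells. The last of these rests on 3 UMIs in the 16 cells of calf 3. The groups did not overlap, and the log2 difference was -0.65 ± 0.23 (SE, adjusted p = 0.0257). The call was lost when any 1 calf was left out, with adjusted p of 0.0831, 0.473 and 0.0533 without calves 1, 2 and 3. It was also lost by DESeq2 (adjusted p = 0.124) and with KRTDAP-high cells of at least 20 KRTDAP UMIs per 10000 (adjusted p = 0.0795).

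TFAP2A, its paralog, moved the other way. Levels were 0.554, 0.782 and 0.815 in basal-high cells and 0.976, 0.909 and 0.948 in KRTDAP-high cells. Calf 1 rose most and calf 2 and calf 3 less, and the groups did not overlap. On the log2 scale the rise was 0.62 ± 0.20 (SE, adjusted p = 0.0156), and it was not called without calf 1 (log2 0.36, adjusted p = 0.396) or calf 2 (adjusted p = 0.106). The TFAP2A call was also lost with library size alone (adjusted p = 0.0693), with no filter on low counts (0.0516), by DESeq2 (0.111) and with at least 20 KRTDAP UMIs per 10000 (0.0631).

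KLF5 had levels of 3.47, 3.46 and 3.75 in basal-high cells, with an SD of 0.167 over the calves. In KRTDAP-high cells they were 4.46, 4.17 and 5.63, all above the basal-high values (log2 difference 0.54 ± 0.20 SE, adjusted p = 0.035). In basal-low cells the levels were 2.57, 2.83 and 3.33, below the basal-high level of each calf, a difference that was not called (adjusted p = 0.307). KRTDAP-mid cells were at 4.68, 3.96 and 4.98. The call was lost without calf 1 or calf 2 (adjusted p = 0.146 and 0.275), with scaling by library size alone (log2 0.40, adjusted p = 0.0976), with no filter (0.103) and with at least 10 or 20 KRTDAP UMIs per 10000 (0.125 and 0.1).

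PITX1, a paired-like homeobox factor of hindlimb and oral epithelium, had levels of 3.43, 3.15 and 3.18 in basal-high cells. In KRTDAP-high cells it had 4.50, 5.25 and 6.95. All 3 calves rose, calf 3 most, and the groups did not overlap. The rise was 0.88 ± 0.20 on the log2 scale (SE, adjusted p = 0.000806), and without calf 2 the adjusted p was 0.0624 at a log2 difference of 0.84.

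GRHL3, the Grainyhead-like factor needed for the epidermal barrier, was close to absent in basal-high cells, at 0.0278, 0.0125 and 0.0048. These levels rest on 32, 29 and 10 UMIs. In KRTDAP-high cells it was at 0.423, 0.537 and 0.506, and in KRTDAP-mid cells at 0.364, 0.111 and 0.322, the last on 2 UMIs in 8 cells. The values of the groups were far apart in each calf, and the log2 difference was 5.14 ± 0.33 (SE, adjusted p = 1.10e-15), which is a 35.3-fold difference. Of all cells in the KRTDAP-high gate, 73 of 176, 113 of 281 and 6 of 16 held at least 1 GRHL3 UMI in calves 1 to 3.

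OVOL1, a zinc finger repressor, was present at a low level in basal-high cells, 0.108, 0.0802 and 0.0820. It was at 0.461, 0.692 and 1.14 in KRTDAP-high cells, where the calves spread more than in any other group (SD 0.344). The groups did not overlap, and the log2 difference was 3.03 ± 0.24 (SE, adjusted p = 3.17e-13), an 8.19-fold difference. KRTDAP-mid cells lay between at 0.191, 0.353 and 0.643, the last on 4 UMIs in 8 cells. OVOL1 had lower mean levels in basal-middle (0.0548) and basal-low cells (0.0611) than in basal-high cells, a difference that was not called (adjusted p = 0.238 for basal-low).

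PAX9, a paired box factor of pharyngeal endoderm and oral and oesophageal epithelium, was scarce in all layers. Its basal-high levels were 0.0912, 0.0345 and 0.0372 and its KRTDAP-high levels 0.0922, 0.0381 and 0, the last in cells where a count of 3 would give 0.190. Calf 1 was higher than the others in every epithelial group. Its log2 difference was 0.22 ± 0.40 (SE, adjusted p = 0.722), an error too wide to place PAX9 among the members that rose, fell or held their level.

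**Figure D2:**
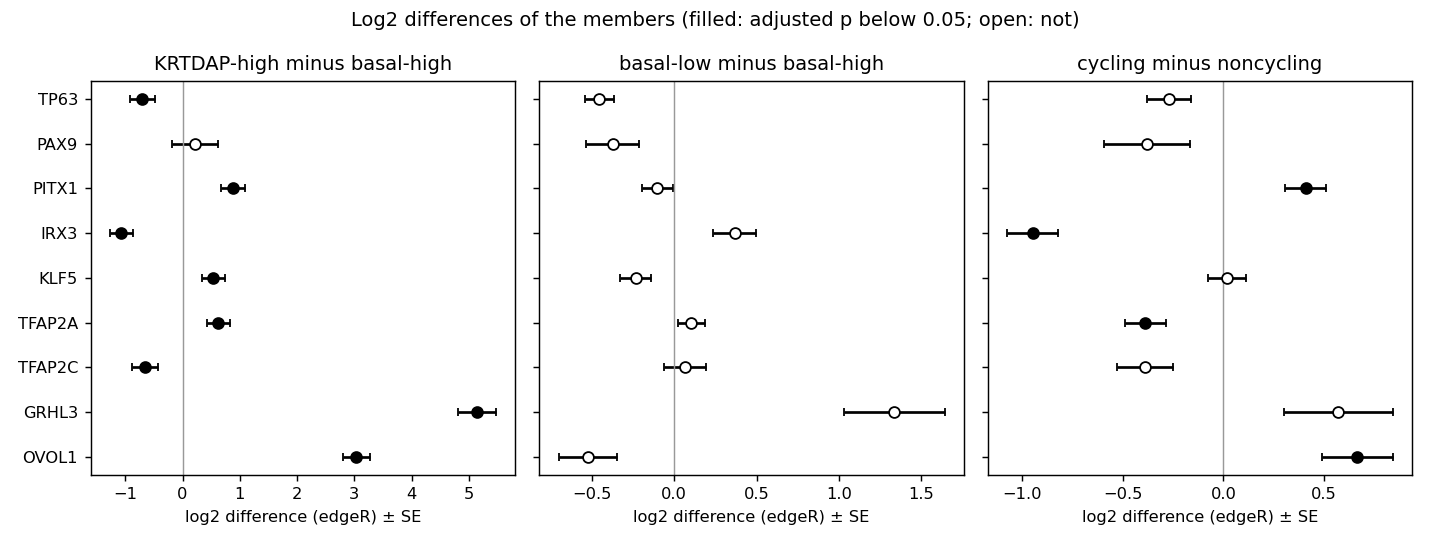
Log2 differences with SE (edgeR, 3 calves) for each member in the comparisons KRTDAP-high minus basal-high, basal-low minus basal-high and cycling minus noncycling; filled points had an adjusted p below 0.05. In the first panel GRHL3 (5.14) and OVOL1 (3.03) stand far to the right, and the middle panel has open points alone.

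Among KRTDAP-low, noncycling cells, basal-low cells were compared with basal-high cells. None of the 9 members was called by edgeR or by DESeq2, with 5 of 9 at an unadjusted p below 0.05 in edgeR, beside 0.0686% of 11660 genes tested that were higher and 0.111% that were lower, and 1833 genes had an unadjusted p below 0.05. TP63 was lower in the basal-low cells of each calf, at 0.437, 0.300 and 0.545, with a log2 difference of -0.45 ± 0.09 (SE, adjusted p = 0.118). GRHL3 was higher in the basal-low cells of each calf, at 0.0561, 0.0225 and 0.0236, with a log2 difference of 1.33 ± 0.31 (SE, adjusted p = 0.156). Both were called with a basal score that left the keratins out (adjusted p = 0.0453 for TP63 and 0.0162 for GRHL3), without calf 2 (2.72e-07 and 5.33e-06) and with no filter on low counts (0.017 and 0.00918). IRX3 (log2 0.20, adjusted p = 0.0376) and KLF5 (log2 -0.22, adjusted p = 0.0112) were also called without calf 2. By DESeq2, 207 genes were called in this comparison instead of 21, and with library size alone 20 higher and 57 lower instead of 8 and 13.

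Cycling cells, in which mitosis genes were expressed, differed from noncycling KRTDAP-low cells in 4 members. IRX3 and TFAP2A were lower and PITX1 and OVOL1 higher, that is 2 of 9 members in each direction, beside 17.6% of 12049 genes tested that were higher and 17.4% that were lower. The median log2 difference of the members was -0.27 and that of all genes -0.04. Calf 1 supplied 872 of the cycling cells, calf 2 208 and calf 3 458. Cycling cells held a median of 13697 UMIs and noncycling cells 7438. The cycling gate took cells whatever their KRTDAP, and 89, 21 and 2 cycling cells of calves 1, 2 and 3 also passed a KRTDAP gate. Without them the 4 members kept their calls (log2 -0.91 for IRX3, -0.40 for TFAP2A, 0.39 for PITX1 and 0.66 for OVOL1, adjusted p of 0.00114 to 0.0271).

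IRX3 levels in cycling cells were 1.49, 1.17 and 1.29, against 2.09, 2.41 and 2.25 in noncycling cells. All cycling values lay below all noncycling values, and the log2 difference was -0.95 ± 0.13 (SE, adjusted p = 0.00129). PITX1 levels were 4.31, 4.83 and 4.72 in cycling and 3.28, 2.87 and 3.05 in noncycling cells. Here the groups were apart in the other direction, with a log2 difference of 0.41 ± 0.10 (SE, adjusted p = 0.0161). With the S-phase list in place of the mitosis list the PITX1 difference was 0.07 (adjusted p = 0.579), and the call was also lost without calf 2 or calf 3 (adjusted p = 0.0953 and 0.128).

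OVOL1 was at 0.130, 0.0891 and 0.15 in cycling cells and at 0.0858, 0.0552 and 0.0664 in noncycling cells. Every calf was higher in cycling cells (log2 0.67 ± 0.18 SE, adjusted p = 0.0223). The OVOL1 call was lost without calf 3 (log2 0.42, adjusted p = 0.202) and against basal-high cells alone (log2 0.34, adjusted p = 0.215). TFAP2A was at 0.543, 0.662 and 0.647 in cycling and 0.555, 0.824 and 0.793 in noncycling cells, where calf 1 hardly differed. Its log2 difference was -0.39 ± 0.10 (SE, adjusted p = 0.0227), and the call was lost without calf 2 or calf 3 (adjusted p = 0.103 and 0.116) and with library size alone (log2 -0.21, adjusted p = 0.162).

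The other members were not called in cycling cells in this fit. TFAP2C had a log2 difference of -0.39 ± 0.14 (SE, adjusted p = 0.0632), TP63 of -0.27 ± 0.11 (SE, adjusted p = 0.0908), PAX9 of -0.38 ± 0.22 (SE, adjusted p = 0.208) and GRHL3 of 0.57 ± 0.27 (SE, adjusted p = 0.137). TFAP2C was called without calf 1 (0.00848), with no filter (0.00534), without doublet removal (0.0447), with the S-phase list (0.0121) and against basal-high cells alone (0.0467). TP63 was called with no filter (0.041) and against basal-high cells alone (0.0201), and GRHL3 against basal-high cells alone (0.0497). For KLF5 the levels per 10000 and the scaled log2 difference were unlike. Its levels were higher in cycling cells of all 3 calves (3.74, 3.76 and 3.55 against 2.93, 3.20 and 3.53), although calf 3 hardly differed. After scaling by TMM (trimmed mean of M values) the log2 difference was 0.02 ± 0.09 (SE, adjusted p = 0.909). With library size alone the median of all genes moved from -0.04 to 0.13 and the genes called to 3236 higher and 1369 lower, a shift that is in the levels per 10000. KLF5 was thus not called higher in cycling cells relative to the genes tested as a whole, and it was not called with library size alone either.

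Outside the epithelium, the members were mostly scarce. In endothelial-like cells all 9 members were lower than in epithelial-like cells of the same calves, beside 25.8% of 12618 genes tested that were higher in epithelial-like cells and 22% that were lower. In immune-like cells 8 of 9 were lower, GRHL3 being the exception (adjusted p = 0.143), beside 21.3% of 12398 genes higher in epithelial-like cells and 16.1% lower. In mural or myofibroblast-like cells of calves 2 and 3, 7 of 9 were lower, PAX9 (adjusted p = 0.125) and GRHL3 (adjusted p = 0.158) not being called, beside 15.5% and 12.9% of 12647 genes. In fibroblast-like cells 8 of 9 were lower, PAX9 not being called (adjusted p = 0.18), beside 18.7% and 14% of 12146 genes. These counts include members with 0 UMIs in the other class, which passed the filter on low counts through epithelial-like cells alone. They are PAX9 and GRHL3 for endothelial-like, PAX9 for immune-like, OVOL1 for mural or myofibroblast-like and GRHL3 for fibroblast-like cells. With library size alone most genes called lay lower in epithelial-like cells instead, for example 1248 higher and 2830 lower against fibroblast-like, 1197 and 2461 against mural or myofibroblast-like, 2143 and 4325 against endothelial-like and 2134 and 2825 against immune-like cells.

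KLF5 and IRX3 were lower in fibroblast-like cells by 4.15 ± 0.32 and 4.16 ± 0.35 on the log2 scale (SE), which became 1.99 and 1.76 without doublet removal. TFAP2A had levels of 0.118 and 0.158 in the mural or myofibroblast-like cells of calves 2 and 3, on 4 and 8 UMIs, and was lower there by 2.91 ± 0.34 (SE, adjusted p = 2.60e-16).

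Several of these contrasts rest on classes with almost no counts. By DESeq2 the calls of GRHL3 and OVOL1 against fibroblast-like cells were lost (adjusted p = 0.341 and 0.141). The GRHL3 call was also lost without calf 1, 2 or 3 (adjusted p = 0.0841, 0.482 and 0.265) and that of OVOL1 without calf 2 or calf 3 (0.248 and 0.208). Against immune-like cells, of which calf 3 supplied 718 of 802, the calls of PAX9, OVOL1 and TFAP2C were lost without calf 3 (adjusted p = 0.456, 0.121 and 0.0618). GRHL3 had 0 UMIs in fibroblast-like, mural or myofibroblast-like and endothelial-like cells and 3 UMIs in immune-like cells. With a floor set at 3 UMIs over the class, the pooled epithelial level of GRHL3 was 7.94 times the floor of endothelial-like cells. It was only 1.2 times the floor of fibroblast-like cells. PAX9 had 0 UMIs in endothelial-like, immune-like and mural or myofibroblast-like cells. Its pooled epithelial level was 9.53, 6.12 and 1.28 times the floors of these classes. OVOL1 had 3 UMIs in endothelial-like cells, and the pooled epithelial level was 19.8 times as high (95% interval for counting error 6.77 to 96.1). These floors and intervals cover counting error alone. They pool calves whose shares of the classes differ, so they give no bound within a calf. The epithelial-like GRHL3 level was 0.0601, 0.0442 and 0.0142 in calves 1, 2 and 3.

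TP63 had 8 UMIs in 1322 endothelial-like cells, 10 in 802 immune-like cells, 5 in 306 mural or myofibroblast-like cells and 4 in 470 fibroblast-like cells. Its levels there were 0.0162, 0.0236, 0.0493 and 0.0294 on average, against 0.507 ± 0.149 (SD, n = 3) in epithelial-like cells. The mural or myofibroblast-like value is the mean of calves 2 and 3. The mean epithelial-like level was 31.3 times the endothelial-like one. The edgeR fit after TMM scaling gave a log2 difference of 5.78 ± 0.32 between these classes (SE, adjusted p = 8.12e-08).

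Fibroblast-like cells were an exception for PITX1. Its levels there were 2.50, 2.65 and 1.58 in calves 1, 2 and 3, resting on 13, 111 and 78 UMIs, against 3.58, 3.07 and 3.21 in epithelial-like cells. The fibroblast-like level was 49.4% to 86.2% of the epithelial-like one, although it was lower in all 3 calves (log2 1.14 ± 0.24 SE in favour of epithelial-like cells, adjusted p = 1.65e-05). That difference was 0.58 with library size alone (adjusted p = 0.0615) and 0.74 without doublet removal. In endothelial-like cells PITX1 was at 0.220, 0.206 and 0.0995.

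Counts of epithelial genes were also found in these classes. The epithelial genes KRT5, KRT14, KRT15 and COL17A1 were therefore measured beside the members. In fibroblast-like cells KRT5 stood at 18% of its epithelial-like level on average (8% to 36.7% over the calves), KRT14 at 11.7%, KRT15 at 16.6% and COL17A1 at 18.8%, while PITX1 stood at 68.5%. After removal of barcodes with more than 20 UMIs per 10000 of the keratins KRT5, KRT14, KRT15, KRT17, KRT6A and KRT4, KRT5 stood at 4.93%, KRT14 at 5.86%, KRT15 at 4.33% and COL17A1 at 4.14%, and PITX1 at 77.3%. The mean PITX1 level was thus not lower without those barcodes, and the part of epithelial RNA in its fibroblast-like counts was not tested.

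A comparison of fibroblast-like with endothelial-like cells was added after these levels had been seen. PITX1 was higher in fibroblast-like cells, with a log2 difference of 3.86 ± 0.27 (SE, adjusted p = 2.64e-10) and no overlap between the calves' values, beside 17.5% of 5537 genes tested that were higher and 18.6% that were lower. Without the keratin-holding barcodes it was 4.28, and without doublet removal 2.30 (adjusted p = 1.01e-07). IRX3 (log2 -0.77, adjusted p = 0.161, and 0.0452 without calf 1) and KLF5 (log2 0.72, adjusted p = 0.162) were not called, and without doublet removal both were called higher in fibroblast-like cells (IRX3 log2 0.59, adjusted p = 0.048, and KLF5 log2 0.87, adjusted p = 0.00445). The direction of IRX3 thus turned with that step. The other members had too few counts to be tested.

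Within the fibroblast-like cells PITX1 was at 2.68 in a cluster of 320 cells (95% interval 2.28 to 3.13) and at 1.18 in a cluster of 150 cells (0.855 to 1.58), both pooled over calves. In calf 2 the values were 3.18 and 1.51, and in calf 3 2.12 and 0.860. TFAP2C followed at 0.373 (0.234 to 0.565) and 0.107 (0.0291 to 0.274), on 22 and 4 UMIs. These are descriptions, with no test between clusters.

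TFAP2C also stood out in fibroblast-like cells, but on few counts. Its levels were 0.192, 0.262 and 0.285 on 1, 11 and 14 UMIs, against 0.263, 0.412 and 0.336 in epithelial-like cells, so 63.7% to 84.6% of the epithelial-like level. The groups overlapped. A log2 difference in favour of epithelial-like cells of 0.96 ± 0.37 was called after TMM scaling (SE, adjusted p = 0.0337). With library size alone it was 0.43 and not called (adjusted p = 0.399). The call was also lost without the keratin-holding barcodes (adjusted p = 0.0955), with DESeq2 (0.214) and without calf 2 or calf 3 (0.459 and 0.169). The same held for edgeR with the size factors of DESeq2 (0.053), without doublet removal (0.16) and without the calf as block (0.11). In endothelial-like cells TFAP2C had 11 UMIs and a mean level of 0.0112.

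IRX3 was the member with the highest level in endothelial-like cells relative to the epithelial-like one. Its endothelial-like levels were 0.384, 0.441 and 0.199 on 14, 109 and 70 UMIs, which was 20.5%, 19.5% and 9.2% of the same calf's epithelial-like level. KRT5 stood at 6.53% on average in these cells. Without keratin-holding barcodes IRX3 stood at 11.1% and KRT5 at 3.8%. IRX3 was still lower in endothelial-like than in epithelial-like cells (log2 3.17 ± 0.24 SE in favour of epithelial-like cells, adjusted p = 8.89e-07), and the part of epithelial RNA in its endothelial-like counts was not tested.

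**Figure D3:**
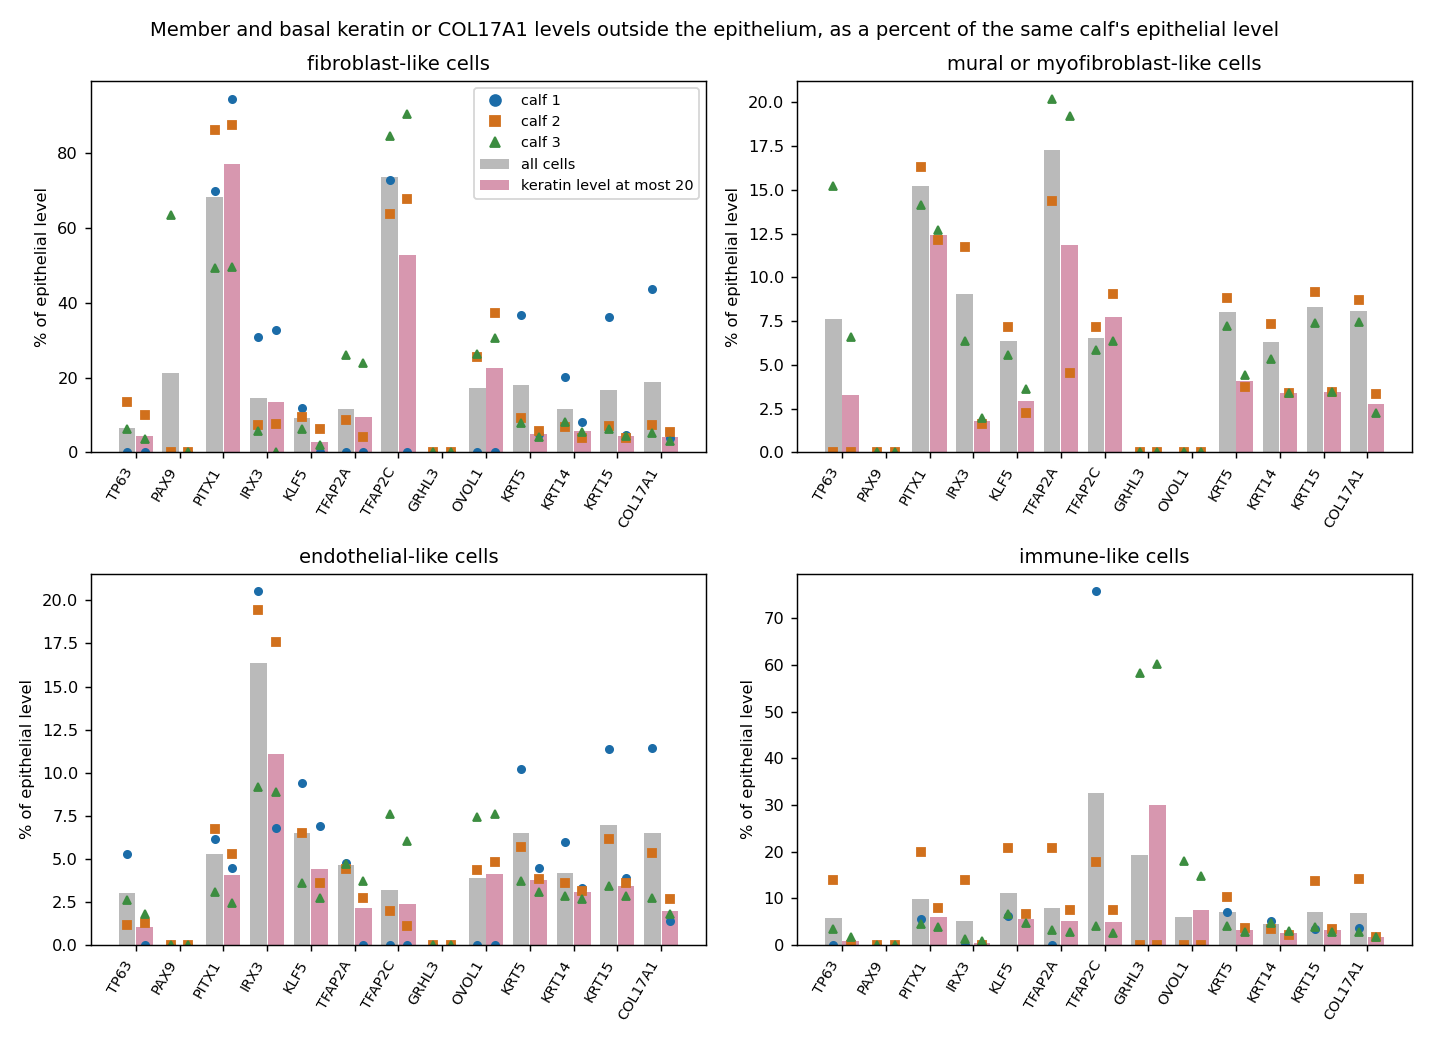
Level of each member and of KRT5, KRT14, KRT15 and COL17A1 in 4 nonepithelial classes, as a percent of the epithelial-like level of the same calf (axes from 0, scaled per panel); bars are the mean over calves with at least 10 cells, for all cells (grey) and for barcodes with at most 20 keratin UMIs per 10000 (red), and points are calves. In fibroblast-like cells PITX1 stands at 68.5% and 77.3% while KRT5 stands at 18% and 4.93%; the tall GRHL3 point in immune-like cells rests on 3 UMIs.

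The share of cells with at least 1 UMI of a member was compared after thinning each cell to 2000 UMIs and leaving out cells with fewer. Of the fibroblast-like cells this kept 11 of 16, 74 of 224 and 108 of 230 in calves 1, 2 and 3. PITX1 was detected in 46.3% ± 0.81 (SD, n = 3) of basal-high, 62.2% ± 2.9 of KRTDAP-high and 58.4% ± 3.3 of cycling cells. Without thinning these shares were 87.1%, 95%, and 94.7%. In endothelial-like cells 3.34% held a UMI after thinning and in fibroblast-like cells 28.2% ± 9.2, where the cells kept had median depths of 4244.5 and 2545 UMIs before thinning against 7768 in epithelial-like cells. The fibroblast-like share of PITX1 exceeded the endothelial-like share in each calf.

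KLF5 was detected in 49.9% ± 0.95 of basal-high and 55.7% ± 1.9 of KRTDAP-high cells after thinning, against 3.06% of endothelial-like cells (88.6%, 90.3% and 8% without thinning). IRX3 fell from 33.1% ± 3.6 in basal-high to 12.7% ± 4.8 in KRTDAP-high cells, with 4.97% in endothelial-like cells (75.5%, 47.3% and 10.7% without thinning). TP63 was seen in 11.8% ± 3.9 and 6.54% ± 3.4 of these epithelial groups and in 0% of endothelial-like cells after thinning (38.8%, 32.6% and 0.746% without). TFAP2A was seen in 13.5% ± 2.4 and 17.9% ± 4.9 and in 0.367% of endothelial-like cells (43.4%, 53.6% and 1.55% without), and TFAP2C in 6.8% ± 0.78 and 5.64% ± 2.9 and in 0.177% (24.4%, 20.3% and 0.554% without).

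GRHL3 was seen after thinning in 0.611%, 0.15% and 0.0837% of basal-high cells and in 7.47%, 10.5% and 0% of KRTDAP-high cells of calves 1 to 3. The value of 0% comes from 13 cells at the thinned depth, where 3 cells with a UMI would give 23.1%, while 6 of 16 cells held one before thinning. Without thinning the mean shares were 1.37% and 39.7%, and no endothelial-like cell held a UMI. OVOL1 was seen in 1.66% ± 0.53 of basal-high and 8.62%, 12.1% and 0% of KRTDAP-high cells, with 33.1% of KRTDAP-high and 7.12% of basal-high cells before thinning. PAX9 was seen in about 1% of basal-high cells (1% ± 0.64) and in 2.87%, 0.778% and 0% of KRTDAP-high cells, against 4.63% and 5.59% before thinning.

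**Figure D4:**
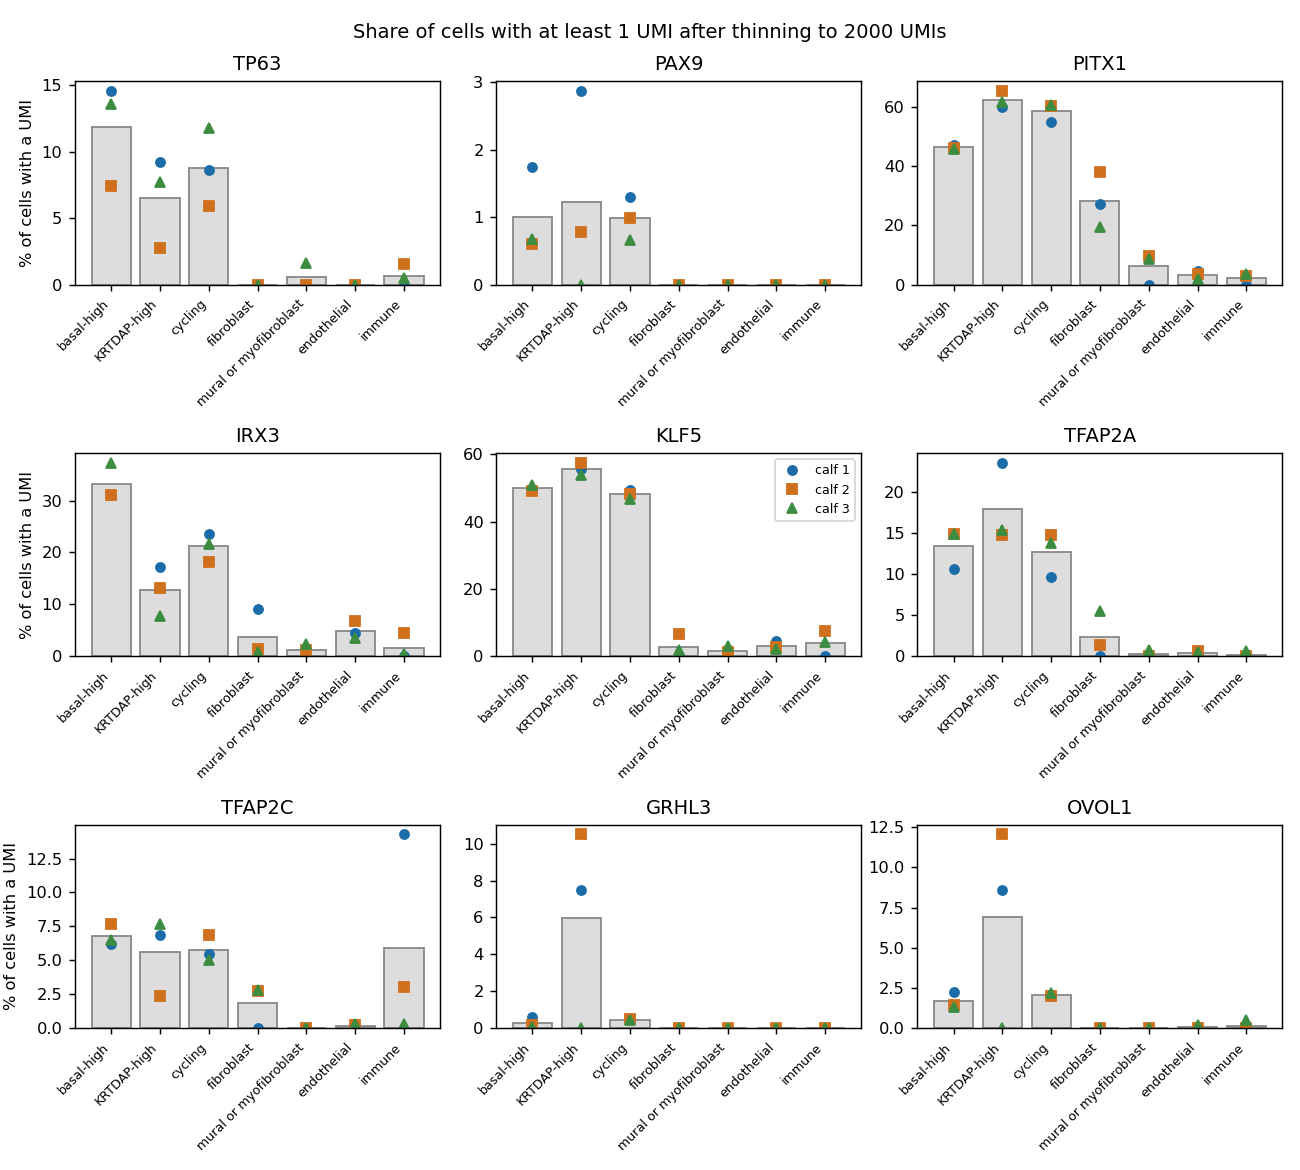
Percent of cells with at least 1 UMI of each member after thinning cells of at least 2000 UMIs to 2000, shallower cells being left out (linear axes from 0, scaled per panel) in basal-high, KRTDAP-high and cycling epithelial-like cells and in 4 nonepithelial classes; bars are the mean of 3 calves and points the calves. PITX1 is seen in 62.2% of KRTDAP-high and 28.2% of fibroblast-like cells, and GRHL3 in 0.281% of basal-high cells. The mural or myofibroblast-like bars include calf 1, which had 3 such cells at this depth.

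A list of 40 other epithelial transcription factors gives the members' setting, 39 of which had a row and 29 of which were tested between KRTDAP-high and basal-high cells. Of these, 11 were higher, 8 were lower and 10 were not called, with a median log2 difference of -0.35. Among all 10177 genes tested, 15.6% were higher and 17.3% lower. The list therefore split into both directions, as the members did. The 10 with the largest differences past the threshold were ZNF750, ELF5, FOXN1, GRHL1, ELF3 and HOPX, all higher, and TP73, BNC1, BCL11B and ID3, all lower.

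ZNF750, a zinc finger factor of terminal epidermal differentiation, rose from 0.060, 0.0539 and 0.0186 to 0.914, 1.31 and 0.885 (log2 4.68 ± 0.25 SE, adjusted p = 3.14e-18). ELF5, an ETS factor of epithelium, rose from 0.0991, 0.261 and 0.0219 to 1.47, 1.67 and 3.1 (log2 4.33 ± 0.36 SE, adjusted p = 2.27e-12). GRHL1, the Grainyhead-like relative of GRHL3 that regulates desmosomal cadherins, rose from 0.142, 0.0897 and 0.0730 to 0.703, 1.27 and 1.2 (log2 3.46 ± 0.25 SE, adjusted p = 3.69e-14). The groups did not overlap for these 3 factors.

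HOPX, a homeodomain-only protein, rose from a mean of 0.157 to 1.19 (log2 3.1 ± 0.21 SE, adjusted p = 3.62e-15), and ELF3, another epithelial ETS factor, from 0.0159 to 0.216 (log2 3.11 ± 0.46 SE, adjusted p = 1.20e-06). FOXN1, a forkhead factor of hair follicle and thymus epithelium, rose from 0.00493 to 0.0587 (log2 3.52 ± 0.62 SE, adjusted p = 2.10e-05). ID3, an inhibitor of basic helix-loop-helix factors, fell from 1.57, 0.939 and 0.950 to 0.273, 0.235 and 0.126 (log2 -2.10 ± 0.23 SE, adjusted p = 1.01e-09).

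TP73, the TP63 relative, fell from a mean of 0.0981 to 0.0058 (log2 -3.15 ± 0.57 SE, adjusted p = 2.93e-05), a larger difference than that of TP63 itself, although the difference between the genes was not tested. BNC1, a zinc finger factor of basal keratinocytes, fell from 0.0446 to 0.00421 (log2 -2.79 ± 0.67 SE, adjusted p = 0.00115), and BCL11B from 0.0447 to 0.00452 (log2 -2.22 ± 0.69 SE, adjusted p = 0.0121). All 3 were at 0 in the 16 KRTDAP-high cells of calf 3, where a count of 3 would give 0.190. IRX5, the neighbour of IRX3 in the Iroquois family, fell by nearly the same amount as IRX3 (log2 -1.06 ± 0.21 SE, adjusted p = 9.78e-05), and it was named for its likeness to IRX3.

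**Figure D5:**
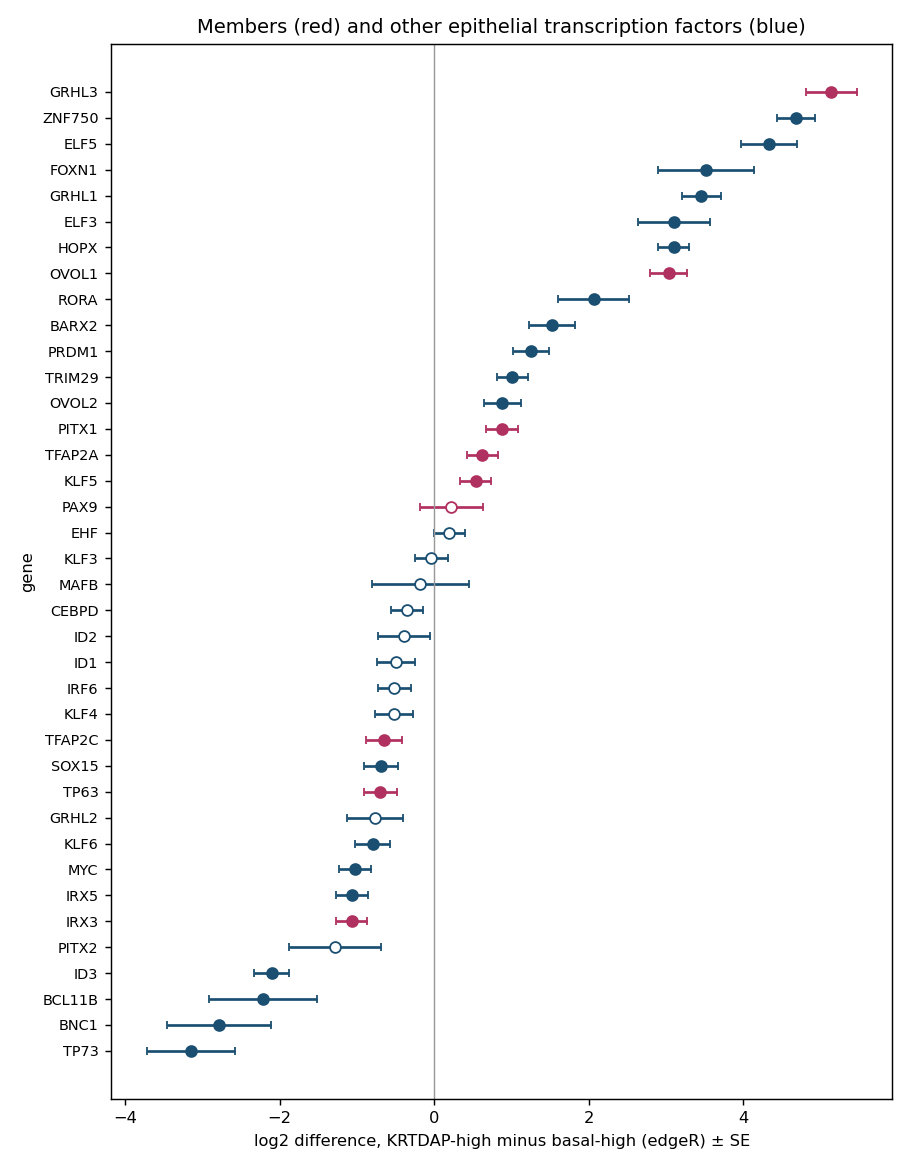
Log2 differences with SE (edgeR, 3 calves) between KRTDAP-high and basal-high cells for the 9 members (red) and 29 tested factors of the other list (blue); filled points had an adjusted p below 0.05. GRHL3 (5.14) and ZNF750 (4.68) lie at the top and TP73 (-3.15) at the bottom.

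In cycling cells 1 factor of the list was higher, ZNF750 (log2 0.97 ± 0.15 SE, adjusted p = 0.00264), 13 were lower and 18 were not called. Of all 12049 genes tested there, 17.6% were higher and 17.4% lower. IRX5 was among those lower (log2 -0.80 ± 0.10 SE, adjusted p = 0.00117), as were MYC (log2 -1.09 ± 0.14 SE) and TP73 (log2 -2.10 ± 0.26 SE). In these cells 3 of 11 tested differentiation genes were also called higher, beside the same 17.6% of all genes tested. The list's summed level was 21.6, 23.6 and 15.4 in cycling against 18.6, 13.3 and 6.18 in noncycling cells. Cells past a KRTDAP gate were left out of the noncycling group but not of the cycling group. The ZNF750 and differentiation gene values are not given here without those cells. MYC and ZNF750 in cycling cells were named after their values were seen.

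For each member the 2 genes with the most similar profile were sought among 7609 genes, by Pearson's r of log2(level + 0.05) over 28 points, which are cell groups within calves with each calf's mean removed. The points share libraries and depth, so the values describe these data. IRX3 was closest to IRX5 (r = 0.985) and FERMT1 (0.966), GRHL3 to TGM1 (0.982), which crosslinks the cornified envelope, and GJB2 (0.971), a gap junction protein. OVOL1 was closest to KRT6A (0.976) and SDR16C5 (0.972), and KLF5 to S100A2 (0.981) and UGT1A1 (0.977). TP63 was closest to HADH (0.965) and PTPRZ1 (0.961), TFAP2A to FAM83B (0.964) and CYP2C18 (0.957), and PITX1 to ACSF2 (0.956) and EPHB3 (0.939). PAX9, at 0.933 with FAM131C and 0.902 with SH3RF2, and TFAP2C, at 0.856 with GAMT and 0.852 with PIK3R2, had weaker neighbours.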

How the data were processed

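Rumen cells of 3 newborn calves were profiled with Chromium 3′ v3 chemistry, 1 library per animal. The authors deposited raw UMI counts per gene and barcode, made with Cell Ranger 3.1.0 (submitters' processing notes) on ARS-UCD1.2 (the study's methods). The members and gene lists were chosen with earlier results of these data known. Named genes were all members, the 10 other epithelial transcription factors with the largest log2 difference past the threshold between KRTDAP-high and basal-high cells, and the 2 most similar genes per member.

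Barcodes with 500 to 4000 genes, at most 50000 UMIs and at most 40% UMIs of the 13 mitochondrial protein genes were kept. Simulated doublets were used to remove 191, 908 and 879 barcodes of calves 1 to 3 (3.91%, 8.52% and 8.39%). Cells were clustered (leidenalg 0.10.2, NumPy 2.4.6, SciPy 1.17.1, Python 3.11.15) on 2000 variable genes, 30 dimensions and resolution 1 without the members and the other transcription factors. Named cell types carry the markers' names with "like".

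Counts summed per calf and cell group, with at least 10 cells in both, were tested with edgeR 4.0.16 in R 4.3.3 (quasi-likelihood, TMM scaling, filterByExpr, calf as block, adjusted p threshold 0.05). Both sums of 1 calf come from the same animal and library, and their deviations from the group means correlated at 0.18 to 0.85. DESeq2 1.42.0, other scalings, filters, gates and left-out calves were alternatives. The edgeR script was tested on simulated data before use. The 95% intervals are exact Poisson or Clopper-Pearson ones. With the calf as block, p-values measure how far the differences within calves vary from calf to calf. They rest on 3 calves, or on 2 for the mural or myofibroblast-like comparison. Depth per cell was a median of 1868 to 13697 UMIs over the main cell groups.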

Additional observations from a re-analysis of the deposited data

Results flagged for a closer look

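Barcodes with more than 4000 genes entered no comparison, yet the members were detected in those within the UMI and mitochondrial limits (735, 175 and 621 barcodes in calves 1, 2 and 3). Their mean levels per 10000 UMIs over the 3 calves were 0.486 for TP63, 0.0374 for PAX9, 3.7 for PITX1, 1.5 for IRX3, 3.74 for KLF5, 0.725 for TFAP2A, 0.291 for TFAP2C, 0.0677 for GRHL3 and 0.175 for OVOL1. Each lay between the lowest and the highest mean of the 6 epithelial-like cell groups. These barcodes had been left out by the limit of 4000 genes, above which the study's methods treat a barcode as a possible doublet, and the members' levels in them were above what a count of 0 allows.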

How the results depend on the processing

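The calls of GRHL3, OVOL1 and IRX3 between KRTDAP-high and basal-high cells held under every alternative run for that comparison, and no member changed direction there. The 90 alternative values of member levels in basal-high and KRTDAP-high cells moved by less than 1 SD over calves. Those with a calf left out could not have moved further, because dropping a calf shifts a mean over so few calves by less than 1 SD. These values thus do not test whether the levels are stable. Of 90 detection shares 29 moved by more, since thinning sets them, and shares with a calf left out could not do so either.

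Without the replicate block (the calf), 1761 genes were called between KRTDAP-high and basal-high cells (3346 with it), 0 between basal-low and basal-high cells (21 with it, and 280 without it at an unadjusted p below 0.05), 700 between cycling and noncycling cells (4216 with it) and 1998 between epithelial-like and mural or myofibroblast-like cells (3586 with it). In that fit TP63, KLF5, TFAP2A and TFAP2C lost their calls between KRTDAP-high and basal-high cells, and PITX1, TFAP2A and OVOL1 in cycling cells. DESeq2 called 2207, 207 and 2184 genes in the first, second and last of these comparisons. For basal-low against basal-high cells, 77 genes were called with library size alone, 533 with no filter, 35 without doublet removal, 11 with 4 parts of the basal score in place of 3 and 139 with a score without keratins. For fibroblast-like against endothelial-like cells, 3215 were called with no filter instead of 1996.

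Leaving out 1 calf in turn gave 1533 (without calf 2) to 3149 genes (without calf 3) between KRTDAP-high and basal-high cells, with 2084 without calf 1. Between basal-low and basal-high cells it gave 0 (without calf 1, where edgeR gave 956 at an unadjusted p below 0.05), 251 (without calf 3) and 966 (without calf 2). In cycling cells the range was 1902 (without calf 3) to 3773, against fibroblast-like cells 1981 (without calf 3) and 2327 (without calf 2) to 4089, against immune-like cells 1466 (without calf 3) to 4876, and between fibroblast-like and endothelial-like cells 1396 to 3198 (without calf 1). The basal-low comparison thus depends on single calves.

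Members that were not called changed sign in a few fits. In basal-low cells TFAP2A was at -0.0185 and OVOL1 at 0.0902 on the log2 scale with the score without keratins, and TFAP2C ranged from -0.0625 to 0.20 over left-out calves. In cycling cells KLF5 was at -0.0269 with no filter, -0.0049 with at most 20% mitochondrial UMIs, -0.10 with the S-phase list, -0.0933 against basal-high cells alone and -0.0047 without cycling cells that passed a KRTDAP gate, and ranged from -0.0689 to 0.0670 over left-out calves. IRX3 turned from -0.77 to 0.59 between fibroblast-like and endothelial-like cells without doublet removal, where it passed the threshold (adjusted p = 0.048), and was called at -1.08 without calf 1. Causes of these changes were not tested. The mural or myofibroblast-like comparison, with calves 2 and 3 alone, was not repeated with a calf left out. The alternatives with library size alone, cells of at least 5000 UMIs, no keratin-holding barcodes and no KRTDAP-holding cycling cells, and all those between fibroblast-like and endothelial-like cells, were chosen after seeing the data. Low counts of PAX9, GRHL3 and OVOL1 outside the epithelium limit their comparisons there.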
